A study of Mus musculus with 5 samples.

Results

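The genes described here are Vpreb1, Vpreb2, Vpreb3 and Igll1, taken by their symbols as 4 of the 27998 genes counted in all of 5 libraries of single mouse bone marrow cells. VpreB, made by Vpreb1 and its near copy Vpreb2, and lambda5, made by Igll1, form the surrogate light chain. A developing B cell that has rearranged its heavy chain gene, but not yet a light chain gene, pairs the heavy chain with this surrogate and shows it at the surface as the pre-B cell receptor, whose signal starts a burst of division and then shuts the surrogate light chain genes down. Vpreb3 is a related gene whose product binds free immunoglobulin chains inside the cell, is not part of that receptor and is made until later in B cell development.

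Each library held cells sorted as CD45-negative and CD31-positive from endosteal (inner bone surface) preparations of mice of the Nes-GFP strain, which carry a green fluorescent reporter driven by Nestin sequences. Young mice were 10 to 12 weeks old and gave 3 libraries, replicates 1 to 3, and aged mice were over 20 months old and gave 2, replicates 2 and 3. The sorted cells were frozen, thawed and tagged in droplets by 10x Genomics 3′ end counting, so that each captured RNA molecule counts as 1 unique molecular identifier (UMI). The reporter strain, the sort and the freezing were shared by all 5 libraries, and whether mice were pooled within a library is not given in the sources used here. The labels call the replicates biological and name no animals, so p-values measure the spread between these libraries. P-values do not do so where 1 of the groups compared is a single sum, as is said below. They do so only in part where the spread is estimated mostly across all genes.

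Of 3384 barcodes, 2116 passed a minimum of 500 genes and 1000 UMIs and a maximum of 10% mitochondrial UMIs, and the median kept cell held 1889.5 to 4212.5 UMIs by library. The labelled cell type was rare: 23 kept cells (1.09%) fell in a cluster with 14 of 14 endothelial markers, which also held 4 of 9 markers of bone-forming cells. B-lineage cells made up 79.8% to 99.3% of each library. Young replicate 1 stood apart, with 83.2% of its B-lineage cells in dividing clusters against 10.7% to 12.2% in the other 4 libraries, and with 171 of the 180 cells of the myeloid cluster. Y-linked UMIs numbered 224 and 284 in the replicate 2 libraries of both ages and at most 1 in the others. Xist UMIs numbered 0 in those libraries and 1118 to 8562 in the others, so animal sex and membership of replicate 2 cannot be told apart. A total of 26 barcode sequences occurred in more than 1 library, 11 of them in young and aged replicate 2 and 9 in young and aged replicate 3.

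The 3 surrogate light chain genes lie on chromosome 16 of build GRCm38, by GENCODE M21, and Igll1 and Vpreb1 are neighbours. Igll1 (ENSMUSG00000075370) spans chr16:16860671-16863985 and Vpreb1 (ENSMUSG00000059305) spans chr16:16868403-16870843, both on the minus strand and 4418 bases apart. Vpreb2 (ENSMUSG00000059280) spans chr16:17980428-17981273 on the plus strand, among other neighbours. Vpreb3 (ENSMUSG00000000903) lies on another chromosome, at chr10:75943057-75949657 on the plus strand. The coding regions of Vpreb1 and Vpreb2 have 142 codons each, that of Vpreb3 has 123 and that of Igll1 has 209.

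Vpreb1 and Vpreb2 are nearly the same sequence, which bears on how well their UMIs can be told apart. Their coding regions differ at 9 of 429 bases with the stop codon. The last 240 coding bases, read from transcript 201 of each gene in GENCODE M21, are shown because 3′ counting reads this end of the RNA, and capitals mark the 6 bases that differ.
Vpreb1 coding end: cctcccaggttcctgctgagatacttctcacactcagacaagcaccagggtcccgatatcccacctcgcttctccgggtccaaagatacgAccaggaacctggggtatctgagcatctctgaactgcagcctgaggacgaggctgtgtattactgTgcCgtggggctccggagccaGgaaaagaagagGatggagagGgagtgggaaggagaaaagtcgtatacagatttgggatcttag
Vpreb2 coding end: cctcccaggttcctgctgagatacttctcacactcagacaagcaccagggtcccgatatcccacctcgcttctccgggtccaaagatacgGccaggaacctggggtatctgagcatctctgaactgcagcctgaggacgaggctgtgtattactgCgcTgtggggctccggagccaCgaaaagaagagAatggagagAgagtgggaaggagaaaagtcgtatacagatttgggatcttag
The 193 bases after the stop codon differ at 7 positions. In the last 300 bases of the Vpreb1 transcript, 0 of 210 stretches of 91 bases and 30 of 251 stretches of 50 bases also occur in Vpreb2. Over the whole transcript, 106 of 676 stretches of 91 bases are shared, so reads that start further from the 3′ end could come from either gene. The split of UMIs between Vpreb1 and Vpreb2 is uncertain to that extent, and no stretch of 50 bases of Vpreb1 is shared with Vpreb3 or of Igll1 with Vpreb1.

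The likeness of Vpreb1 and Vpreb2 extends upstream of the gene. The following 106 bases end just before the start of the coding transcript 201 of Vpreb1 (chr16:16869256-16869361, minus strand) and near that of Vpreb2 (chr16:17980315-17980420, plus strand), are from RefSeq on GRCm38.p6 and differ at the 2 bases in capitals.
Vpreb1 shared upstream stretch: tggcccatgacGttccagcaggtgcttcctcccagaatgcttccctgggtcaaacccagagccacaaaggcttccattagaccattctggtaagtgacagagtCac
Vpreb2 shared upstream stretch: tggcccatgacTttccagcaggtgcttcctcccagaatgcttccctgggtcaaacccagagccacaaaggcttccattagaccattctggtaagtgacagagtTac
The 250 bases before the RefSeq start of the 4 genes were searched on both strands for motifs of factors that act in early B cells. These were the early B cell factor motif CCCNNGGG, the E-box CAGGTG, the Ikaros core TGGGAA and the octamer ATTTGCAT, and the windows of the 3 genes below are shown because Vpreb3 differed from the other 2 across cell groups. Capitals mark the matches.
Vpreb1 upstream (chr16:16869256-16869505, minus strand): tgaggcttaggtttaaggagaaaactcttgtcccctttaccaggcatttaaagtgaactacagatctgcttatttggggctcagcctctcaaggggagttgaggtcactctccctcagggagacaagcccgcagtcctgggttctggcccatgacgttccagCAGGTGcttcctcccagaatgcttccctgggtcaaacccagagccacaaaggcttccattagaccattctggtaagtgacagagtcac
Igll1 upstream (chr16:16863986-16864235, minus strand): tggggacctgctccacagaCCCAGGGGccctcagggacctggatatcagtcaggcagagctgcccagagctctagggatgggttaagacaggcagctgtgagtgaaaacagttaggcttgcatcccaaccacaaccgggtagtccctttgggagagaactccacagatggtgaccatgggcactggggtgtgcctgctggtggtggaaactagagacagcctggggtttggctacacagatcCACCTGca
Vpreb3 upstream (chr10:75948050-75948299, plus strand): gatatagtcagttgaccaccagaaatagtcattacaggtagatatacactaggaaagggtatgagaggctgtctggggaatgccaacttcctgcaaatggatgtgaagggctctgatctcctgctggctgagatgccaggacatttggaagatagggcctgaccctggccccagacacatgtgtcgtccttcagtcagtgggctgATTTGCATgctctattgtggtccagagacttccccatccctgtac
The Vpreb1 window overlaps an exon of a non-coding transcript of that gene, and the Vpreb3 window lies in an intron of a longer Vpreb3 transcript. The E-box was found in the windows of Vpreb1, Vpreb2 and Igll1, starting 88, 232 and 8 bases before the start, and in 17.2% of 32851 RefSeq windows. The RefSeq start of Vpreb2 lies downstream of the GENCODE start, and its E-box is the one in the shared stretch. The early B cell factor motif was found 231 bases before Igll1, and in 11.8% of all windows. The octamer was found 45 bases before Vpreb3, and in 1.6% of all windows. The Ikaros core was found 64 bases before the RefSeq start of Vpreb2, in the part not printed, and in 21.6% of all windows. That match lies downstream of the GENCODE start of Vpreb2, and so within the annotated gene. These matches are letters in a window and were not tested as binding sites.

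The 4 genes differed in how widely they were counted. Vpreb3 gave 17942 UMIs in 1955 of the 2116 kept cells (92.4%), with at most 75 in a cell. Vpreb1 gave 7111 UMIs in 855 cells (40.4%) and Igll1 gave 6476 UMIs in 907 cells (42.9%). Vpreb2 gave 914 UMIs in 344 cells (16.3%). Levels below are in CPM, the UMIs of a gene scaled to a total of 1000000 UMIs for the cells summed. They count 3′ ends and are not scaled by transcript length, and the capture of each gene's 3′ end was not measured.

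Cells were grouped into 9 clusters with the 4 genes left out of the clustering, so that their levels could be compared between clusters. Cluster 3 (300 cells) held 7 of 9 markers of early B cells, had Dntt, Erg and Lef1 among its leading genes, and is called pro-B-like below. Clusters 0 (484 cells, with Cd74, H2-Aa and Tnfrsf13c among its leading genes) and 1 (362 cells, with Cd2, Ly6d, the Y-linked Eif2s3y and Il21r) were resting B-lineage cells that are not given a stage name. Cluster 1 drew 153 cells from aged and 138 from young replicate 2, and cluster 0 drew 23 and 29 from the same libraries. The 2 clusters thus differ in their libraries, and in the animal sex that goes with replicate 2. Cluster 7 (40 cells) held 12 of 14 markers of immature and mature B cells, with Ms4a1 and Cd74, and is called late B-like. It also held 4 of 6 markers of plasmacytoid dendritic cells, at the highest summed level of the 9 clusters (1658 CPM), with Cox6a2 of that list among its leading genes. Whether some of its cells are of that type was not tested. Clusters 2, 4 and 6 were dividing B-lineage cells, with Fbxo5, Rrm2 and Top2a, with Nme1, Ung and Mif, and with the G2/M genes Ube2c and Cdc20 among their leading genes. Clusters 5 and 8 were the myeloid and endothelial clusters.

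Vpreb1, Vpreb2 and Igll1 were concentrated in the pro-B-like cluster. That cluster held 14.2% of the kept cells and 10.2% of their UMIs, but 63.2% of the Vpreb1 UMIs, 73.4% of the Vpreb2 UMIs and 61.3% of the Igll1 UMIs. The share of Vpreb3 UMIs there was 20.5%. The dividing cluster 4 came next, with 21.2%, 19.9% and 21.7% of the UMIs of Vpreb1, Vpreb2 and Igll1.

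**Figure D1:**
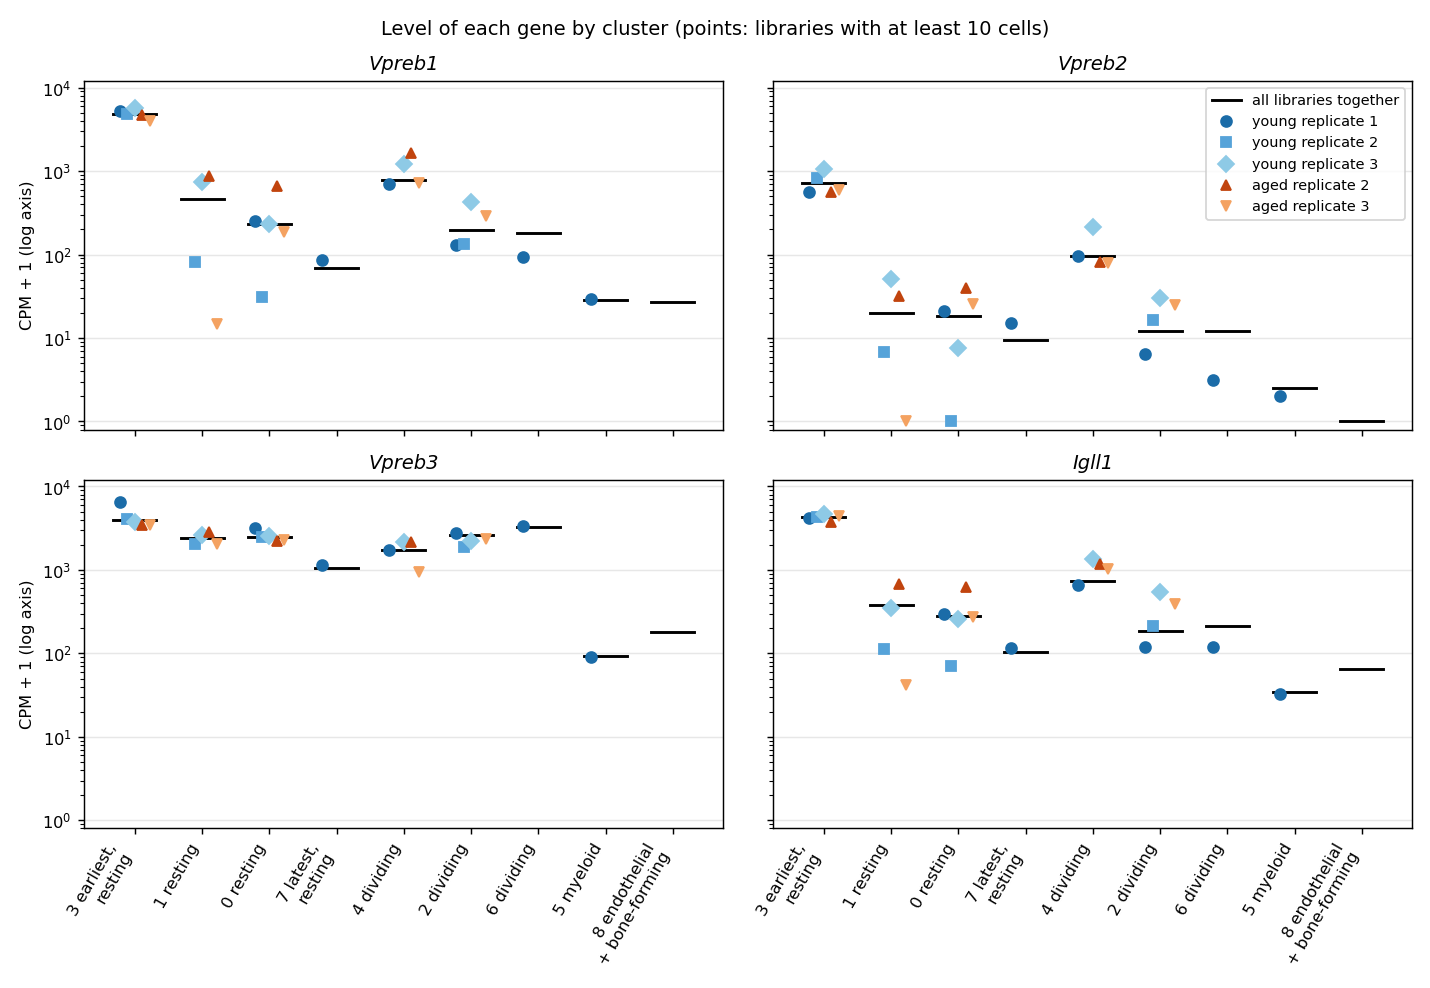
Level of each gene (CPM plus 1, log axis) in the 9 clusters, with a point for each library holding at least 10 cells of the cluster and a bar for all libraries together. Vpreb1, Vpreb2 and Igll1 stand highest in the pro-B-like cluster 3, while the bars of Vpreb3 run from 1051 to 3958 CPM over the B-lineage clusters.

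In the pro-B-like cells the VpreB gene Vpreb1 stood at 5264, 4822 and 5733 CPM (young 1 to 3) and at 4690 and 3973 CPM (aged 2 and 3), a mean of 4897 ± 659 (SD, n = 5). The 5 libraries lie close together, with aged replicate 3 lowest. Vpreb2 stood at 558, 827 and 1047 CPM (young 1 to 3) and at 569 and 594 CPM (aged 2 and 3), a mean of 719 ± 214 (SD, n = 5). Young replicates 2 and 3 were above the other 3 libraries for Vpreb2.

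Igll1, the lambda5 gene, stood at 4158, 4325 and 4705 CPM in the pro-B-like cells of young 1 to 3 and at 3778 and 4432 CPM in those of aged 2 and 3, a mean of 4280 ± 344 (SD, n = 5). Its spread between libraries was small and the ages overlapped. Vpreb3 stood at 6536, 4122 and 3784 CPM (young 1 to 3) and at 3494 and 3457 CPM (aged 2 and 3), a mean of 4279 ± 1290 (SD, n = 5). Young replicate 1 was well above the others for Vpreb3, in 35 cells.

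Outside the pro-B-like cluster the surrogate light chain genes were low and uneven between libraries, and Vpreb3 was not. In cluster 0, Vpreb1 ranged from 30.2 to 656 CPM over the 5 libraries (median 231), Vpreb2 from 0 (where 3 counts would be 30.2) to 38.6 and Igll1 from 70.4 to 617, while Vpreb3 ranged from 2212 to 3183. In cluster 1, Vpreb1 had 81.4 CPM in young replicate 2, 740 in young replicate 3, 866 in aged replicate 2 and 13.7 in aged replicate 3. Igll1 followed the same order, with 113, 346, 685 and 41.0 CPM. Vpreb3 in the same 4 sums was 2024, 2592, 2820 and 2052.

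The differences from the pro-B-like cluster were tested on UMIs summed per library and cluster, with library as a term (edgeR quasi-likelihood, Benjamini-Hochberg adjusted over all 4622 genes tested). In cluster 0, 13.1% of all genes were called lower, and 4 of 4 members were. Vpreb1 was lower by a log2 difference of -4.37 ± 0.14 (SE), Vpreb2 by -5.33 ± 0.24 and Igll1 by -3.94 ± 0.13. Vpreb3 fell much less, by a log2 difference of -0.69 ± 0.09 (adjusted p = 8.1e-12, edgeR). In cluster 1, where 13.2% of genes were called lower, the log2 differences were -3.85 ± 0.16 for Vpreb1, -5.15 ± 0.27 for Vpreb2, -3.88 ± 0.15 for Igll1 and -0.72 ± 0.10 for Vpreb3. The largest adjusted p-value of these 8 edgeR tests was 3.1e-10 (Vpreb3 in cluster 1). The p-values and standard errors rest mostly on a spread estimated across all genes. It weighed as 363 degrees of freedom, against 7 residual ones for each gene from 15 sums. Both can therefore understate the spread of these genes between libraries, such as 13.7 to 866 CPM for Vpreb1 in cluster 1.

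Clusters 0 and 1 were also compared with each other. This was done in 1 fit over all library and B-lineage cluster sums of at least 10 cells, with both clusters present in 4 libraries. None of the 4 genes was called, but only 2.02% of all 4803 genes were. The lack of a call therefore says little about the 4 genes, and they may still differ. The edgeR adjusted p-values were 0.514 for Vpreb1, 0.915 for Vpreb2, 0.891 for Vpreb3 and 0.992 for Igll1. The log2 difference of cluster 1 from cluster 0 was 0.44 ± 0.28 (SE) for Vpreb1 and 0.02 ± 0.26 for Igll1.

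Of the B-lineage clusters, the late B-like cluster had the lowest level of Vpreb1, Vpreb3 and Igll1. Its 40 cells held 8 Vpreb1, 1 Vpreb2, 123 Vpreb3 and 12 Igll1 UMIs, or 68.4, 8.55, 1051 and 103 CPM. Only young replicate 1, with 21 of these cells, had at least 10 cells of both the pro-B-like and the late B-like clusters, so this comparison rests on 1 library. There 2.75% of genes were called lower than in the pro-B-like cluster, and Vpreb1 had a log2 difference of -5.92 ± 0.44 (SE), Vpreb2 of -5.26 ± 0.81, Igll1 of -5.20 ± 0.41 and Vpreb3 of -2.33 ± 0.22. The late B-like cells enter as 1 sum, so p-values and calls of this comparison measure no spread between libraries in late cells, and effect sizes are given. With DESeq2 Vpreb2 was not called.

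The late cells of young replicate 1 held 6 Vpreb1, 1 Vpreb2 and 8 Igll1 UMIs, so the size of the Vpreb2 difference rests on 1 UMI (14.2 CPM, 95% exact Poisson interval 0.360 to 79.2). With the 4 genes kept for clustering, the late cells of that library numbered 14 and held 0 Vpreb1, 0 Vpreb2 and 2 Igll1 UMIs. The plasmacytoid dendritic markers of that late cluster summed to 741 CPM. Clustering at a resolution of 1.2, or without sex-linked genes, gave late cells in 4 libraries, with log2 differences of -6.43 and -6.65 for Vpreb1 and a smaller -1.24 and -1.41 for Vpreb3. Among genes that mark the stages, Ms4a1, which codes for CD20, had a log2 difference of 7.41 from pro-B-like to late B-like cells, Cd74, the class II invariant chain, 7.31, and Rag1, a subunit of the recombinase, -3.08. Cd79a, the Ig-alpha signalling chain, had -0.07. The marker lists by which these clusters were chosen include Ms4a1, Cd74 and Dntt, so the differences of those genes follow from that choice. Dntt, the terminal transferase of pro-B cells, had -2.06, and 27 of the 29 Dntt UMIs of the late B-like cells sat in 1 cell of young replicate 1 that held 0 Vpreb1, 0 Vpreb2, 6 Vpreb3 and 1 Igll1 UMIs.

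Summed over their clusters, dividing B-lineage cells had lower levels of all 4 genes than resting ones. Resting cells are clusters 0, 1, 3 and 7 and dividing cells are clusters 2, 4 and 6. In the order young 1, young 2, young 3, aged 2 and aged 3, Vpreb1 had 1732, 1155, 2337, 2172 and 1424 CPM in resting and 392, 473, 774, 1395 and 511 in dividing cells. It was lower in dividing cells in 5 of 5 libraries, but the groups overlap because the dividing cells of aged replicate 2 were above the resting cells of young replicate 2. Vpreb2 had 182, 193, 402, 218 and 211 CPM in resting and 46.5, 46.1, 111, 72.2 and 51.5 in dividing cells. It was lower in 5 of 5 libraries and the groups do not overlap.

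Igll1 had 1421, 1068, 1937, 1752 and 1626 CPM in resting and 366, 498, 905, 980 and 726 in dividing cells, in the same order. All 5 dividing values lie below all 5 resting values. Vpreb3 had 3743, 2571, 2952, 2984 and 2610 CPM in resting and 2373, 1851, 2287, 2230 and 1710 in dividing cells. The Vpreb3 groups also do not overlap, but by a smaller margin. The share of all genes that part in this way, as Vpreb2, Igll1 and Vpreb3 do, was not counted.

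In the test of dividing against resting cells, paired by library, 22.5% of 6609 genes were called lower and 24.3% higher, and 4 of 4 members were lower. The log2 difference was -1.33 ± 0.12 (SE; edgeR adjusted p = 4.2e-11) for Vpreb1, and it ranged over the libraries from -2.14 in young replicate 1 to -0.64 in aged replicate 2. For Vpreb2 it was -1.78 ± 0.16 (edgeR adjusted p = 3.5e-11) and for Igll1 -1.15 ± 0.11 (edgeR adjusted p = 8.0e-11). For Vpreb3 it was -0.41 ± 0.07 (edgeR adjusted p = 3.3e-05), and without the pairing it was -0.40 with an edgeR adjusted p of 0.0735, which ends the call. The median of all genes was -0.04, and leaving out TMM scaling shifted it by -0.12. Other genes of the early and late stages were also lower in dividing cells, with log2 differences of -2.54 for Dntt, -2.60 for Rag1, -1.80 for Cd74 and -4.27 for Ms4a1. The pro-B-like cluster is counted among the resting cells. Over all libraries Vpreb1 stood at 4833 CPM in it, at 231 and 467 CPM in the resting clusters 0 and 1, and at 195, 788 and 182 CPM in the dividing clusters 2, 4 and 6. Igll1 stood at 4274, at 276 and 381, and at 184, 734 and 212 CPM in the same clusters, so the resting clusters 0 and 1 were not above cluster 4. Vpreb3 stood at 3958, at 2505 and 2422, and at 2637, 1743 and 3228 CPM in these clusters. For Vpreb3 the dividing clusters 2 and 6 were thus above the resting clusters 0 and 1, and only cluster 4 was below them.

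**Figure D2:**
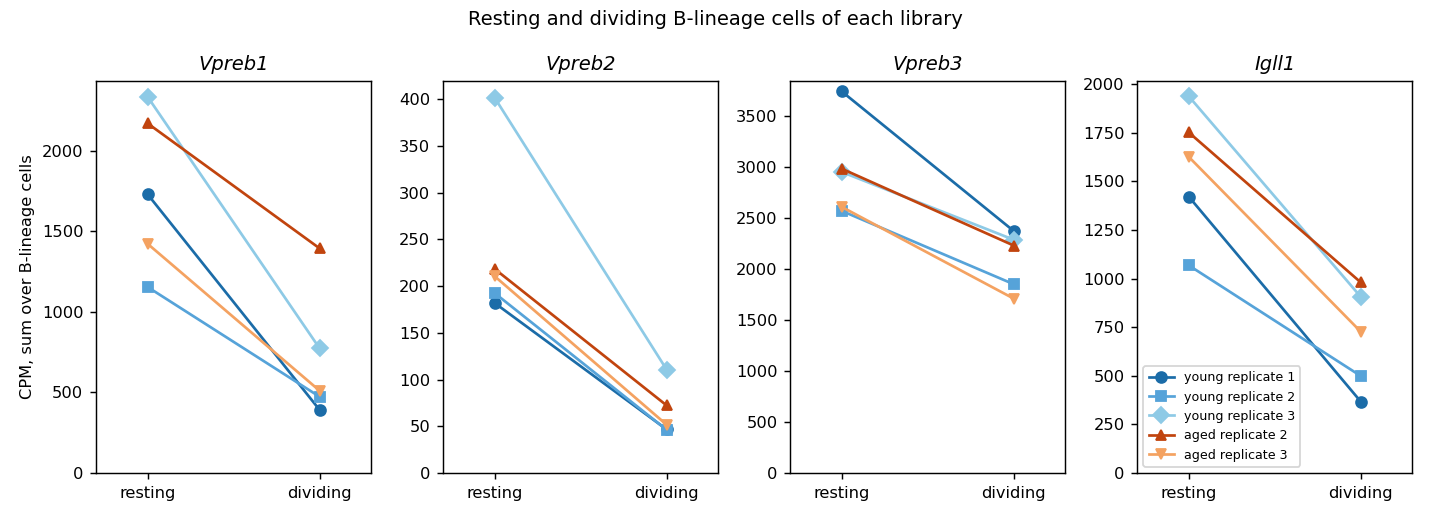
Level of each gene (CPM) in the summed resting and dividing B-lineage cells of each library, with a line joining the 2 values of a library. Every line falls from resting to dividing, and for Vpreb1 the dividing cells of aged replicate 2 (1395) stay above the resting cells of young replicate 2 (1155).

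Markers of other cells were also measured in these sums. Summed over 11 neutrophil genes, the level was 1.72 to 251 CPM in resting and 4.19 to 231 in dividing cells, and summed over 14 endothelial genes it was 185 to 274 and 71.3 to 192, lower in dividing cells in 5 of 5 libraries, and its part in the result was not tested. The summed erythroid markers reached 6123 and 8249 CPM in the dividing cells of young and aged replicate 3, and fell to 91 and 193 without 3 cells. Those 3 cells held 0 Vpreb1, 0 Vpreb2, 1 Vpreb3 and 1 Igll1 UMIs. Splitting the B-lineage cells by cell cycle genes gave the same order. The 640 B-lineage cells with UMIs of at least 2 of 10 cell cycle genes had a Vpreb1 level of 419 CPM against 1606 in the other 1273 cells. The values were 43.1 and 218 for Vpreb2, 407 and 1432 for Igll1, and 2379 and 2707 for Vpreb3. Those 10 genes also helped to call clusters dividing, and 1.67% of the pro-B-like cells were among the 640. The split is therefore not a separate check.

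The dividing clusters were not alike. Cluster 4, with Nme1, Ung, Cdca7 and Mif among its leading genes, had a Vpreb1 level of 706 CPM in young replicate 1, 1202 in young replicate 3, 1638 in aged replicate 2 and 715 in aged replicate 3. Cluster 2, with Rrm2 and Top2a among its leading genes, had 130, 133 and 427 in young 1 to 3 and 286 in aged replicate 3. Sums of under 10 cells were young replicate 2 in cluster 4 (8 cells, 648 CPM) and aged replicate 2 in cluster 2 (9 cells, 1184 CPM). With them the clusters overlap, since aged replicate 2 stood high in both, while in each of the 5 libraries cluster 4 was above cluster 2. For Vpreb2 the values were 95, 216, 79.7 and 78.4 in cluster 4 and 5.45, 15.7, 29.5 and 23.9 in cluster 2. For Igll1 they were 652, 1341, 1189 and 1038 against 120, 212, 545 and 394. The sums of under 10 cells had 54.9 and 648 CPM of Vpreb2 and Igll1 in cluster 4 of young replicate 2, and 73.1 and 716 in cluster 2 of aged replicate 2.

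Vpreb3 went the other way between these clusters. It had 1744, 2189, 2138 and 940 CPM in cluster 4 and 2757, 1888, 2240 and 2374 in cluster 2, and the groups overlap. In the 3 libraries with at least 10 cells of both, and in a comparison chosen after the values were seen, 9.35% of 4803 genes were called higher and 8.29% lower in cluster 4. The log2 difference of cluster 4 from cluster 2 was 2.10 ± 0.28 (SE; edgeR adjusted p = 7.8e-09) for Vpreb1, 3.57 ± 0.39 (edgeR adjusted p = 1.1e-11) for Vpreb2 and 1.88 ± 0.26 (edgeR adjusted p = 1.5e-08) for Igll1. For Vpreb3 it was -0.39 ± 0.14 (edgeR adjusted p = 0.0441). The median cell held 5666.5 UMIs in cluster 4 and 4033.5 in cluster 2.

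Both dividing clusters were below the pro-B-like cluster for each gene. Cluster 4 was lower by a log2 difference of -2.35 ± 0.21 (SE) for Vpreb1, -2.40 ± 0.22 for Vpreb2, -2.07 ± 0.20 for Igll1 and -1.16 ± 0.13 for Vpreb3, where 19.9% of genes were called lower. Cluster 2 was lower by -4.45 ± 0.26 for Vpreb1, -5.97 ± 0.32 for Vpreb2, -3.95 ± 0.24 for Igll1 and -0.77 ± 0.13 for Vpreb3, where 18.2% of genes were called lower. The largest edgeR adjusted p of these 8 differences was 4.3e-07. The G2/M cluster 6 could be compared in 1 library, young replicate 1, where 7.18% of genes were called lower. The log2 differences there were -5.56 for Vpreb1, -4.81 for Igll1 and -0.65 for Vpreb3. Vpreb2 gave 1 UMI in cluster 6 of that library. Cluster 6 enters as 1 sum, so calls of this comparison measure no spread between libraries in cluster 6, and effect sizes are given. Young replicate 1 gave 189 of the 248 cells of cluster 4.

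Within the pro-B-like cluster nearly every cell held RNA for both chains of the surrogate light chain. Of its 300 cells, 293 (97.7%) held UMIs of Vpreb1 and Igll1, and 220 (73.3%) held UMIs of all 4 genes. With each cell thinned to 1000 UMIs, 269 cells (89.7%) held both and 139 (46.3%) all 4. The median cell held 13 Vpreb1 UMIs (10th to 90th percentile 4 to 28.1), 12 Igll1 UMIs (4 to 24), 11 Vpreb3 UMIs (3 to 24) and 2 Vpreb2 UMIs (0 to 5).

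In the other B-lineage clusters cells with Vpreb3 alone were common. Cluster 4 had both Vpreb1 and Igll1 in 166 of 248 cells (66.9%; 60 cells after thinning) and Vpreb3 alone in 39. In cluster 0, 42 of 484 cells (8.68%) held both and 302 (62.4%) held Vpreb3 alone. In cluster 1, 56 of 362 cells (15.5%) held both and 203 (56.1%) Vpreb3 alone. Cluster 2, which is dividing, had 55 of 350 cells (15.7%) with both and 189 with Vpreb3 alone.

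**Figure D3:**
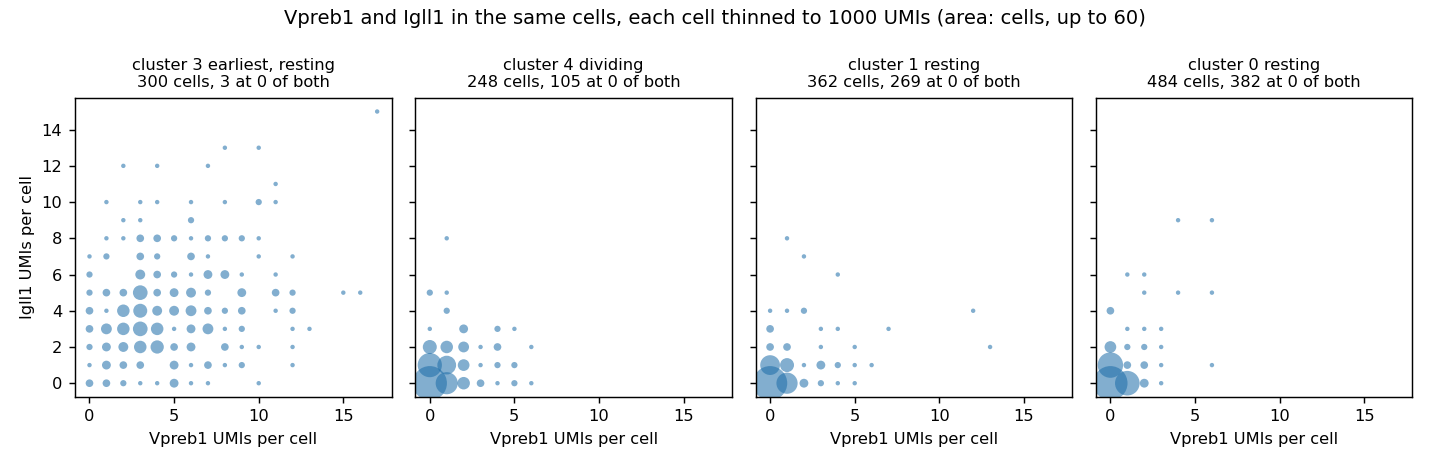
Number of cells by their Vpreb1 UMIs (x axis) and Igll1 UMIs (y axis) after thinning each cell to 1000 UMIs, in clusters 3, 4, 1 and 0. The cells with 0 UMIs of both number 3 of 300 in the pro-B-like cluster 3, 105 of 248 in cluster 4, 269 of 362 in cluster 1 and 382 of 484 in cluster 0.

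After thinning, the pro-B-like cluster had the highest share of cells with a UMI of each gene. In the pro-B-like cluster Vpreb1 was found in 98.3% of cells (94.3% thinned), Igll1 in 99.0% (94.3%), Vpreb3 in 99.0% (96.7%) and Vpreb2 in 74.0% (50%). In cluster 4 the thinned shares were 40.3% for Vpreb1, 41.5% for Igll1, 80.2% for Vpreb3 and 7.3% for Vpreb2. In cluster 0 they were 12.2% for Vpreb1, 13.6% for Igll1, 87.6% for Vpreb3 and 1.2% for Vpreb2. Among pro-B-like cells, thinned UMIs of Vpreb1 and Vpreb2 had a Pearson correlation of 0.41 (0.19 to 0.47 within libraries), and those of Vpreb1 and Igll1 of 0.22 (0.02 to 0.39 within libraries), over 300 cells that share libraries and depth.

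The balance among the genes shifted between clusters. Vpreb2 gave 13% of the summed Vpreb1 and Vpreb2 UMIs in the pro-B-like cluster (95% exact binomial interval 12.1% to 13.9%, 9.59% to 15.4% by library). The same share was 10.8% (9.34% to 12.4%) in cluster 4, 6.91% (4.08% to 10.8%) in cluster 0, 5.36% (3.21% to 8.33%) in cluster 2 and 3.85% (2.21% to 6.17%) in cluster 1. These intervals cover counting error only, and the difference between clusters was not tested. Igll1 stayed close to Vpreb1 throughout, with 0.884 Igll1 UMIs per Vpreb1 UMI in the pro-B-like cluster (0.790 to 1.12 by library), 0.932 in cluster 4, 0.943 in cluster 2, 0.815 in cluster 1 and 1.2 in cluster 0. Vpreb3 gave 0.819 UMIs per Vpreb1 UMI in the pro-B-like cluster, 2.21 in cluster 4, 5.18 in cluster 1, 10.8 in cluster 0, 13.5 in cluster 2 and 17.7 in cluster 6.

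Resting cells were also divided by single genes of V(D)J recombination, as a description. The 270 resting cells with a UMI of Dntt had a Vpreb1 level of 4691 CPM against 530 in the 916 without. The values were 676 and 59.6 for Vpreb2, 4234 and 456 for Igll1, and 3990 and 2420 for Vpreb3. In the order of libraries used above, Vpreb1 was 4433, 4705, 5320, 4887 and 3969 in the cells with a Dntt UMI and 140, 167, 706, 995 and 415 in those without. The 2 sets do not overlap, and aged replicate 2 and young replicate 3 were highest among the cells without Dntt. The cells with a Dntt UMI were deeper, with a median of 2994.5 UMIs against 2097.5. The 361 resting cells with a Rag1 or Rag2 UMI and no Dntt UMI had levels of Vpreb1, Vpreb2, Vpreb3 and Igll1 of 578, 56.6, 2525 and 496 CPM, and the 100 with a Ms4a1 UMI had 477, 43.3, 1894 and 461. These pooled values hide uneven libraries. In the Rag set Vpreb1 ran from 83.8 to 1052 CPM (median 265) and Igll1 from 62.9 to 897 (median 242). In the Ms4a1 set Vpreb1 ran from 0 to 2666 CPM (median 77.3) and Igll1 from 24.8 to 2473 (median 179).

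In clusters 0 and 1, the levels of Vpreb1 and Igll1 were highest in aged replicate 2. In its 23 cells of cluster 0, 56.5% held a Vpreb1 UMI, and the level was 656 CPM with all cells and 731 without 4 cells marked as doublets. In its 153 cells of cluster 1 the share was 47.1% and the level 866, or 661 without 17 marked doublets. Dntt stood at 33.0 CPM there, against 999 in the pro-B-like cells of the same library. In young replicate 3 the cluster 1 level of 740 fell to 298 without 1 marked doublet of 25 cells. Of the 49 doublets marked in all, 23 were in aged replicate 2, and their part in its levels beyond these values was not tested.

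Partners and signalling genes of the pre-B cell receptor were followed from pro-B-like to late B-like cells. There the late cells are 1 sum of 1 library, so calls measure no spread between libraries in late cells. A gene not called may still differ. Of 15 such genes, 14 were tested between pro-B-like and late B-like cells, where 2.94% of all genes were called higher and 2.75% lower, and 1 was called higher and 1 lower. Ptpn6, which codes for the phosphatase SHP-1, rose by 3.17 ± 0.60 (SE) on the log2 scale and Blnk, the adaptor of the receptor, fell by a log2 difference of -1.19 ± 0.38. Blk, a receptor kinase, at 1.65, and Cd22, an inhibitory receptor, at 3.00, were not called. The median of the list was 0.26, against -0.07 over all genes.

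Of 17 transcription factors of early B cells, 16 were tested over the same stages, and 2 were called higher and 4 lower. Lef1 had a log2 difference of -5.26 ± 0.78 (SE) and Ebf1, a regulator of the surrogate light chain genes, of -1.10 ± 0.20. Lef1 is among the early B markers by which the pro-B-like cluster was chosen, so its fall follows from that choice. Genes other than the members could also enter the clustering, so the calls in both lists between these clusters are a description. Spib had 2.01 ± 0.40 and Ikzf3, which codes for Aiolos, 4.05 ± 0.85. The median of the list was -0.27.

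In both lists most of the genes tested were called lower in dividing than in resting cells, where 22.5% of all genes were called lower and 24.3% higher and the median of all genes was -0.04. Of the 15 receptor and signalling genes, 13 were tested, and 8 were called lower and 0 higher, with a median log2 difference of -0.68. Cd79b and Cd79a, the signalling chains of the receptor, were lower by -1.02 ± 0.09 and -0.86 ± 0.09, Blnk by -0.88 ± 0.12 and the kinase Lyn by -0.99 ± 0.16 (log2 ± SE). Of the 17 transcription factors, 16 were tested, and 12 were called lower and 0 higher, with a median of -0.57, led by Ebf1 (-1.04), Sox4 (-1.36), Spib (-1.22) and Foxo1 (-1.04). Against these medians the log2 differences of Vpreb1, Vpreb2 and Igll1 were larger and that of Vpreb3 was smaller, a statement of size that carries no test.

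The genes most like each member were sought over 18 sums of library and B-lineage cluster with at least 20 cells, among 6116 genes, by Pearson correlation of log2 CPM. Vpreb1 was most like Igll1 (r = 0.988) and Vpreb2 (0.927), then Rfk (0.900), Impdh1 (0.893) and Sapcd1 (0.879). Vpreb2 was most like Ldlrad4 (0.960), Lat (0.953), Igll1 (0.947), Arpp21 (0.937) and Phldb3 (0.935). Igll1 had Impdh1 (0.912), Gmfg (0.910) and Rfk (0.898) after Vpreb1 and Vpreb2. Vpreb3 had none of the other 3 members among its 5, which were Gmfg (0.858), Atxn7l1 (0.835), Sucla2 (0.816), Slamf7 (0.816) and Ppp1r21 (0.802), and its correlation with Vpreb1 was 0.646. The sums share libraries, and these values describe them only.

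The genes that flank the members had lower levels, and those with more than a few UMIs differed less between clusters 3 and 0 than the surrogate light chain genes did, with no test made. Top3b, which overlaps Vpreb1 on the opposite strand, had 43.0 CPM in the pro-B-like cluster and 36.3 in cluster 0. Ppm1f, the next gene on that side, had 8.61 and 3.03. Around Vpreb2, Slc25a1 had 21.5 and 7.06 and Dgcr6 had 217 and 118. Spag6l, beyond Igll1, had 5.38 and 1.01, and the neighbours of Vpreb3, Gm867 and Gm5134, had at most 3.23 in either cluster. Over the same clusters Vpreb1 went from 4833 to 231 CPM, Igll1 from 4274 to 276, Vpreb2 from 722 to 17.1 and Vpreb3 from 3958 to 2505.

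Levels in myeloid and endothelial cells are given as a reference for low levels, not as a clean floor. Of the 180 myeloid cells, 171 were from young replicate 1. A Dntt UMI was found in 25 of the 180, with up to 25 in a cell. The myeloid cluster 5, led by S100a8, Prtn3 and Elane, had 27.8 CPM of Vpreb1, 1.49 of Vpreb2, 33.3 of Igll1 and 91.3 of Vpreb3. A Vpreb1 UMI was found in 21.7% of its cells at a median depth of 9524.5 UMIs, but in 3.33% after thinning, and Vpreb3 in 57.8% and 7.22%. The 23 cells of the endothelial cluster held 2 Vpreb1, 5 Igll1 and 14 Vpreb3 UMIs, and 0 Vpreb2 UMIs, where 3 counts would correspond to 38.6 CPM. Of these, the 18 cells with a UMI of Cdh5, the endothelial cadherin, held 2 Vpreb1, 4 Igll1 and 6 Vpreb3 UMIs. In the late B-like cluster Vpreb1 stood at 68.4 CPM (95% exact Poisson interval 29.5 to 135), against 27.8 (21.0 to 36.1) in the myeloid cluster, and 5 of its 40 cells held a Vpreb1 UMI.

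The share of B-lineage cells with a Vpreb1 UMI was 40.1%, 26.9% and 47.3% (young 1 to 3) and 65.7% and 35.5% (aged 2 and 3). After thinning it was 20.0%, 17.5%, 37.9%, 53.9% and 27.5%. Aged replicate 2 was highest and the ages overlap. For Igll1 the shares were 42.0%, 30% and 49.2% (young 1 to 3) and 66.1% and 39.3% (aged 2 and 3), with the same order of libraries. For Vpreb2 they were 13.1%, 14.3%, 23.5%, 25.7% and 18.3%, and for Vpreb3 99.0%, 92.4%, 95.2%, 97.9% and 94.3%.

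**Figure D4:**
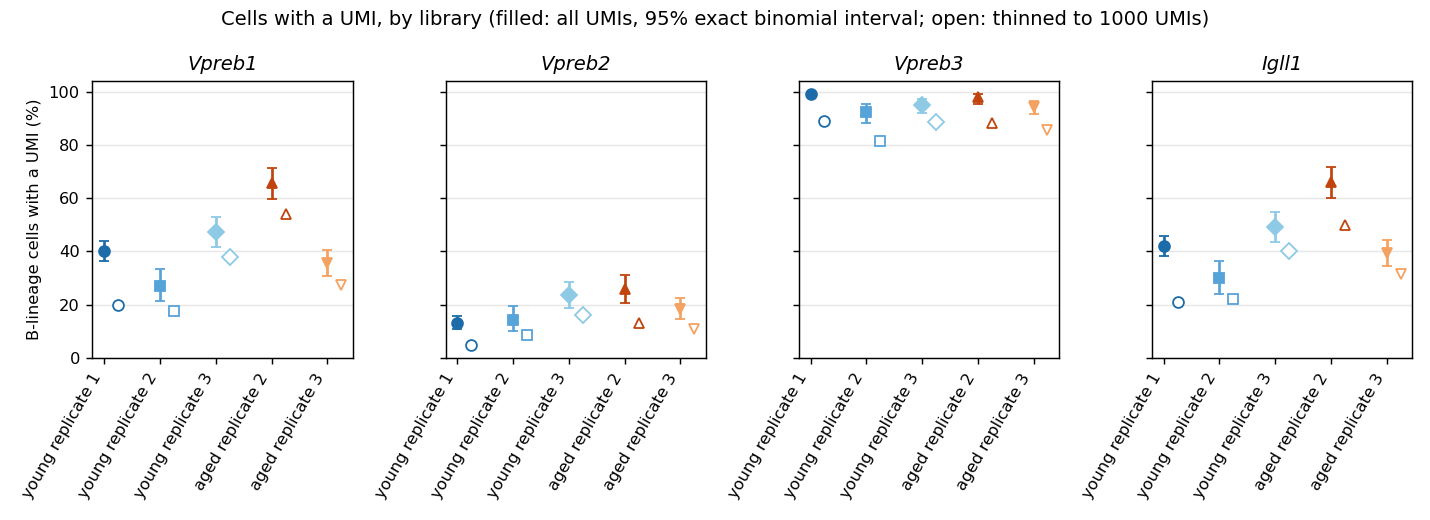
Percent of B-lineage cells with at least 1 UMI of each gene in each library, with all UMIs (filled, 95% exact binomial interval) and after thinning each cell to 1000 UMIs (open). Aged replicate 2 is highest for Vpreb1 (65.7%) and Igll1 (66.1%), and Vpreb3 is above 90% in all 5 libraries with all UMIs.

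The mean share with a Vpreb1 UMI was 38.1% ± 10.3 (SD, n = 3) in young and 50.6% ± 21.4 (SD, n = 2) in aged libraries, a difference of 12.5 points (two-sided exact permutation p = 0.5). Without aged replicate 2 the difference was -2.63 points. For Igll1 the means were 40.4% ± 9.67 and 52.7% ± 18.9, and the difference of 12.3 points (exact permutation p = 0.5) became -1.07 points without aged replicate 2. The differences for Vpreb2 and Vpreb3 were 5.01 and 0.578 points (exact permutation p = 0.4 and 0.9). With 3 young and 2 aged libraries the smallest exact permutation p is 0.1, so no share could pass 0.05.

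In resting cells the ages differed in level by less than the spread between libraries. Vpreb1 had 1742 ± 591 CPM (SD, n = 3) in young and 1798 ± 529 (SD, n = 2) in aged libraries. Vpreb2 had 259 ± 124 and 215 ± 5.53, Vpreb3 3089 ± 598 and 2797 ± 265, and Igll1 1475 ± 437 and 1689 ± 89.0. The log2 differences, aged minus young, were -0.04 ± 0.33 (SE) for Vpreb1, -0.36 ± 0.34 for Vpreb2, -0.22 ± 0.27 for Vpreb3 and 0.12 ± 0.30 for Igll1. None was called by edgeR, where 0% of 6516 genes were called, 137 had an unadjusted p under 0.05, and DESeq2 also called 0. A difference that was not called may still exist at this number of libraries.

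In dividing cells the log2 differences with age were 0.74 ± 0.39 (SE) for Vpreb1, -0.02 ± 0.46 for Vpreb2, -0.22 ± 0.29 for Vpreb3 and 0.49 ± 0.36 for Igll1. Vpreb1 had 546 ± 201 CPM in young (SD, n = 3) and 953 ± 625 in aged libraries (SD, n = 2), and without aged replicate 2 the log2 difference was -0.10. Of 3705 genes 0% were called by edgeR and 127 had an unadjusted p under 0.05. In the pro-B-like cells alone, the levels of Vpreb1 were 5273 ± 456 in young and 4332 ± 507 in aged libraries, and of Igll1 4396 ± 281 and 4105 ± 462. For Vpreb1, and for Vpreb3 (6536, 4122 and 3784 against 3494 and 3457 CPM), the 3 young values lie above both aged values. The ages overlap for Vpreb2 and Igll1. These differences were not tested within that cluster, and the share of all genes that part in this way was not counted. Fewer cells of a stage and less RNA per cell cannot be told apart in the resting and dividing sums.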

How the data were processed

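The 5 deposited tables hold raw UMI counts per gene and barcode. The submitters' processing notes list Cell Ranger, build mm10, edgeR 3.24.3, DESeq2 1.22.2 and R 3.5.2, with no role given. The Cell Ranger version is not given in the sources used here. Libraries held 935656 to 5900751 UMIs. A gene name table matched 27645 of 27998 identifiers.

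Cells were clustered in Python 3.11.15 with scanpy 1.11.5 and leidenalg 0.10.2 (2000 variable genes without the 4 members, 30 components, 15 neighbours, resolution 0.8). A cluster was B-lineage where its summed B-lineage markers reached 25% of the median cluster's, a level set after seeing the data. Doublets (49 marked at an expected 2%) were kept.

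Counts were summed per library and class (at least 10 cells) and tested with edgeR 4.0.16 in R 4.3.3 (quasi-likelihood, TMM, filterByExpr, Benjamini-Hochberg under 0.05), with DESeq2 1.42.0 as an alternative. Standard errors are the log2 difference divided by the square root of F. The script was tested on simulated data. Intervals are 95% exact and cover counting error only. Named genes were the members, up to 4 genes of smallest p per list, 6 stage genes, the 5 genes most like each member and the neighbours. The members and lists were chosen with earlier results of these data known. Constant region genes of immunoglobulins were left unused.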

Additional observations from a re-analysis of the deposited data

Results flagged for a closer look

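All 4 genes also gave UMIs in the 1268 barcodes that failed the filters on genes, UMIs or mitochondrial share, which no comparison used. Those barcodes held 1106602 UMIs, and 3 counts of that total correspond to 2.71 CPM (UMIs scaled to a total of 1000000). Vpreb1 gave 448 UMIs there (405 CPM, in 17.6% of the barcodes), and Vpreb2 gave 58 (52.4 CPM, 3.71%). Igll1 gave 627 UMIs (567 CPM, 22.3%) and Vpreb3 gave 1297 (1172 CPM, 42.7%). Each value lies above that floor.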

How the results depend on the processing

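The 4 genes were lower in dividing than in resting cells under all 16 alternatives run, and 63 of the 64 values kept their call. The exception was Vpreb3 without the library term, at -0.40 (edgeR adjusted p = 0.0735). Over these alternatives the log2 difference ranged from -1.59 to -1.13 for Vpreb1, -2.41 to -1.77 for Vpreb2, -0.52 to -0.33 for Vpreb3 and -1.37 to -0.97 for Igll1. Between pro-B-like and late B-like cells 67 of 68 values kept their call, the exception being Vpreb2 with DESeq2 at -5.53 (adjusted p = 0.0667). These include fits of Vpreb1 or Vpreb2 to late sums with 0 UMIs, which give no size. Leaving out young replicate 1 gave no value there, since only it has at least 10 late B-like cells.

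Counts of genes called moved more. For dividing against resting cells (3094) the count was 1087 with thinned cells, 1586 with dividing cells set by the 10 cell cycle genes and 2635 to 2907 with each replicate left out. For late against early cells (263) it was 96 with DESeq2, 132 without the filter on low counts, 50 with thinned cells, 114 with the members kept for clustering, 605 at resolution 1.2, and 244 to 256 with a replicate left out. After seeing the data 3 alternatives were added, of which leaving sex-linked genes out of the clustering gave 527 and sums of at least 5 cells gave 456; leaving out shared barcodes gave 251. For age, 0 genes became 12 in resting and 6 in dividing cells without the filter, 26 in resting cells with a replicate block, and 0 to 3 and 0 to 0 with a replicate left out.

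For age differences of the members, 8 of 64 values in resting and 4 of 62 in dividing cells changed sign. Vpreb1 in resting cells became 0.049 without TMM scaling, 0.043 with the replicate block, 0.040 with at least 2000 UMIs per cell and 0.12 by the cell cycle genes, and ranged from -0.32 to 0.25 with a replicate left out (0.25 without young replicate 3 and 0.20 without aged replicate 3). Vpreb2 ranged from -0.58 to 0.15 (0.15 without young replicate 3) and Igll1 from -0.10 (without young replicate 2) to 0.38. In dividing cells Vpreb1 ranged from -0.10 (without aged replicate 2) to 1.26, and Vpreb2 became 0.081 without TMM scaling and ranged from -0.25 to 0.30, with 0.30 without young replicate 3 and 0.15 without aged replicate 3. Vpreb2 was not tested in dividing cells with thinned cells or with the cell cycle genes. The aged minus young share of B-lineage cells with a UMI ranged from -2.63 to 27.6 points for Vpreb1, 1.28 to 8.74 for Vpreb2, -1.18 to 2.33 for Vpreb3 and -1.07 to 25.7 for Igll1 with a replicate left out. The lowest values of Vpreb1, Vpreb3 and Igll1 came without aged replicate 2, and Vpreb3 was also -0.995 without young replicate 2. In each case the cause was not tested. Deviations from the group mean were correlated between young and aged replicate 2 (r = 0.31) and between young and aged replicate 3 (r = 0.20). With 2 aged libraries these deviations are mirror images, and young replicate 2 against aged replicate 3 gave -0.31. The values are therefore not separate observations and cannot show a pairing, and replicate 2 also goes with animal sex.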
